A study of Komagataella phaffii CBS 7435 with 16 samples.

Results

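Low oxygen at 4 volume changes was compared with the oxygenated starting state in chemostat cultures of Komagataella phaffii, using 8 of the 16 libraries of the series. Members were chosen by their labels alone: the 4 libraries labelled 0% oxygen and 4 volume changes, biological replicates 1 to 4, and the 4 labelled 30% oxygen and 5 volume changes. Every library came from whole cells of the wild-type strain CBS7435, with no recombinant gene named in its genotype label, grown on limiting glucose. The protocol states other oxygen values for these points. In it the starting state was reached after 66 h of chemostat at 21% inlet oxygen, and the later one 50 h after a switch to 8% inlet oxygen. The groups are named by the sample labels below. The 8 remaining libraries, 4 each at 0.4 and 5 volume changes of 0% oxygen (5 h and 70 h after the switch), entered the fit and are used only to place the values of named features and feature sets. Low oxygen and time in the chemostat changed together in this comparison and cannot be told apart. The labels call the replicates biological without saying that each was a separate chemostat, so p-values measure the spread between these libraries.

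K. phaffii is a methylotrophic yeast widely used to make recombinant proteins, and it respires rather than ferments while oxygen is ample. Oxygen is the final electron acceptor of its respiratory chain, and it is also a substrate in the synthesis of sterols, unsaturated fatty acids and heme. When oxygen becomes limiting, yeast cells generally draw more of their energy from glycolysis and fermentation. The deposited tables list features by identifier and do not pair them with gene names, and the reference table used here, of strain GS115, matched 0 of 5564 identifiers. The features below are therefore not assigned to these pathways, and no sequence is shown. A suffix t is taken here as coding, since the tables do not explain it, and r marks a second kind of feature.

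Of 5452 tested features, 2727 passed an adjusted p of 0.05 in edgeR's quasi-likelihood test (50.0% of those tested), 1342 higher and 1385 lower at 4 volume changes of 0% oxygen. In bulk RNA, fewer cells that express a gene and less RNA per cell cannot be told apart, and all values are relative to the rest of the library. The balance between higher and lower depended on the scaling: scaling by upper quartiles gave 1531 increases and 1201 decreases, and scaling by library size alone 1036 and 1461. Most called features changed little, since 2170 of the 2727 (79.6%) differed by less than 2-fold. The values of the 4 and 4 libraries did not overlap for 2322 features, 42.6% of those tested, and 2215 of these were among the called.

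Large changes were more often decreases. At 2-fold or more, 204 features were higher (3.74% of those tested) and 353 lower (6.47%). Between 2-fold and 4-fold, 165 were higher and 251 lower. Between 4-fold and 16-fold the numbers were 33 and 79, and at 16-fold or more they were 6 and 23. The excess of decreases at 2-fold or more was present under every scaling, filter, tool and left-out library tried, with 171 to 227 features higher and 328 to 381 lower. Of the 557 features, 539 had no overlap between the values of the groups, and 13 of the remaining 18 averaged under 10 CPM. The 557 were picked by fold in these same libraries, which favours such separation.

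**Figure D1:**
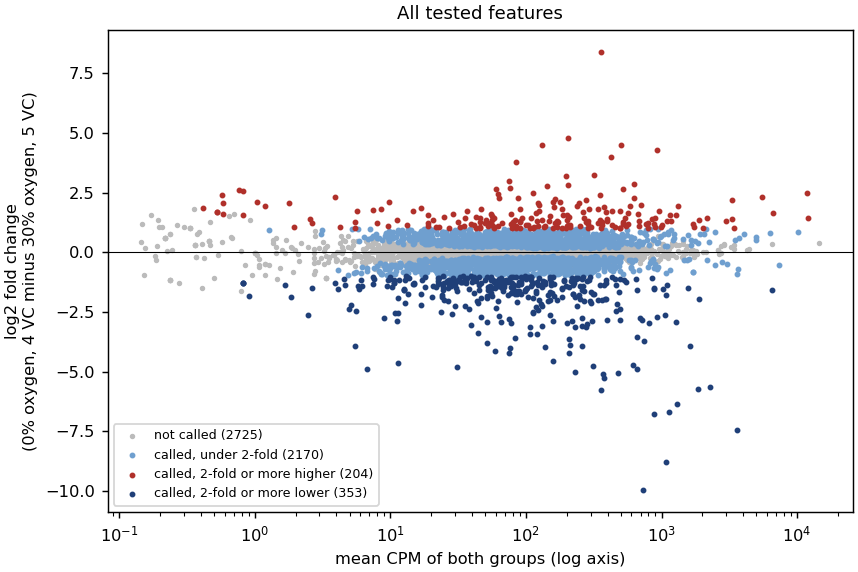
Log2 fold change (0% oxygen at 4 volume changes minus 30% oxygen at 5 volume changes) against the mean CPM of both groups on a log axis, 1 point per tested feature, coloured by call. Points at or beyond 2-fold number 204 above and 353 below, and the largest decreases extend to higher CPM than the largest increases.

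**Figure D2:**
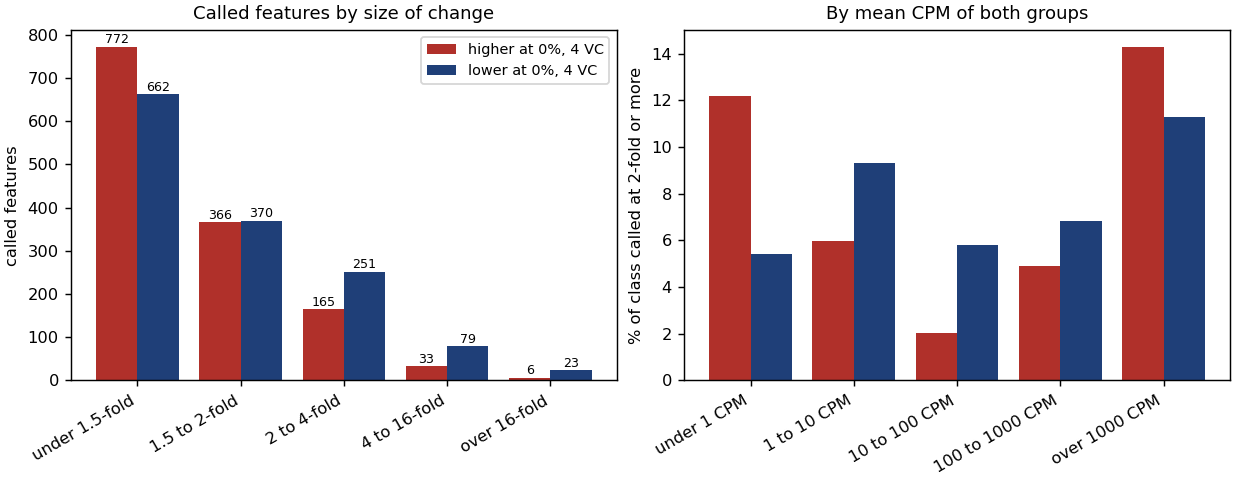
Left, called features by size of change, higher in red and lower in blue; the lower bar exceeds the higher in each class from 1.5-fold up, by 370 to 366 in the first of these and 23 to 6 in the last. Right, the percentage of each class of mean CPM (both groups together) called at 2-fold or more in each direction.

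PP7435_Chr3-0810.t01, a coding feature of 2019 nt on chromosome 3, had the largest increase by fold. In CPM, the count scaled by library size and TMM factor, it stood at 3.24, 1.87, 1.13 and 2.18 in replicates 1 to 4 at 30% oxygen and at 599.7, 832, 743 and 665 in replicates 1 to 4 at 4 volume changes. The groups were far apart, and the control libraries held only 42 to 148 counts each. The log2 fold change was 8.38 ± 0.25 (SE), with an adjusted p of 1.75e-14 in edgeR's quasi-likelihood test. Per unit of length the feature moved from rank 5510 to rank 570 of all features by mean TPM. Its level did not change beyond the spread between 0.4 and 4 volume changes (log2 difference 0.20 ± 0.18) or between 4 and 5 (-0.01 ± 0.18). Over all tested features 34.8% were called in the first of these comparisons and 0.642% in the second.

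PP7435_Chr4-0952.t01, on chromosome 4 (1023 nt), gained the most reads. It stood at 2981, 3670.3, 3879 and 4019 CPM in replicates 1 to 4 at 30% oxygen and at 17994, 23244, 19145 and 20447 CPM in those at 4 volume changes. An abundant feature at the start, it became still more abundant, with no overlap between groups, which the choice of named features required. Group means were 3638 ± 460.5 and 20207 ± 2259 CPM (SD, n = 4). The log2 fold change was 2.47 ± 0.19 (SE), with an adjusted p of 5.31e-09 in edgeR's quasi-likelihood test. By mean TPM it moved from rank 30 to rank 4. It had reached 22934 ± 1005 CPM by 0.4 volume changes, and the later groups did not differ from each other beyond their error (-0.18 ± 0.18 from 0.4 to 4 and -0.13 ± 0.18 from 4 to 5 volume changes).

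PP7435_Chr1-3512.t01, on chromosome 1, is a short feature of 123 nt and had the largest decrease by fold. It held 1438, 1674, 1368 and 1373 CPM in replicates 1 to 4 at 30% oxygen and 1.45, 0.956, 1.66 and 1.75 CPM in those at 4 volume changes. The low values rest on 25 to 58 counts per library. The log2 fold change was -9.96 ± 0.22 (SE), with an adjusted p of 2.53e-16 in edgeR's quasi-likelihood test. The level at 4 volume changes was below that at 0.4 (log2 difference -0.96 ± 0.19, adjusted p = 0.00067 in the same test), while the difference of 0.75 ± 0.19 from 4 to 5 volume changes had an adjusted p of 0.0966. TPM divides by effective length, which averaged 22.2 nt for this feature, and on that scale it ranked 2 at 30% oxygen and 3233 at 4 volume changes.

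PP7435_Chr1-1165.t01, on chromosome 1 (2133 nt), lost the most reads. It stood at 6363, 8502, 7773 and 6035 CPM in replicates 1 to 4 at 30% oxygen and at 36.5, 47.1, 38.2 and 41.5 CPM in those at 4 volume changes. No library of either group came near the other group. The log2 fold change was -7.46 ± 0.21 (SE), with an adjusted p of 9.53e-15 in edgeR's quasi-likelihood test, and the rank by mean TPM went from 42 to 5125. This decrease came in steps. Against 30% oxygen the feature was at -3.75 ± 0.18 after 0.4 volume changes, from 0.4 to 4 volume changes it fell by 3.71 ± 0.18 on the log2 scale, and from 4 to 5 it differed by -0.10 ± 0.16.

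**Figure D3:**
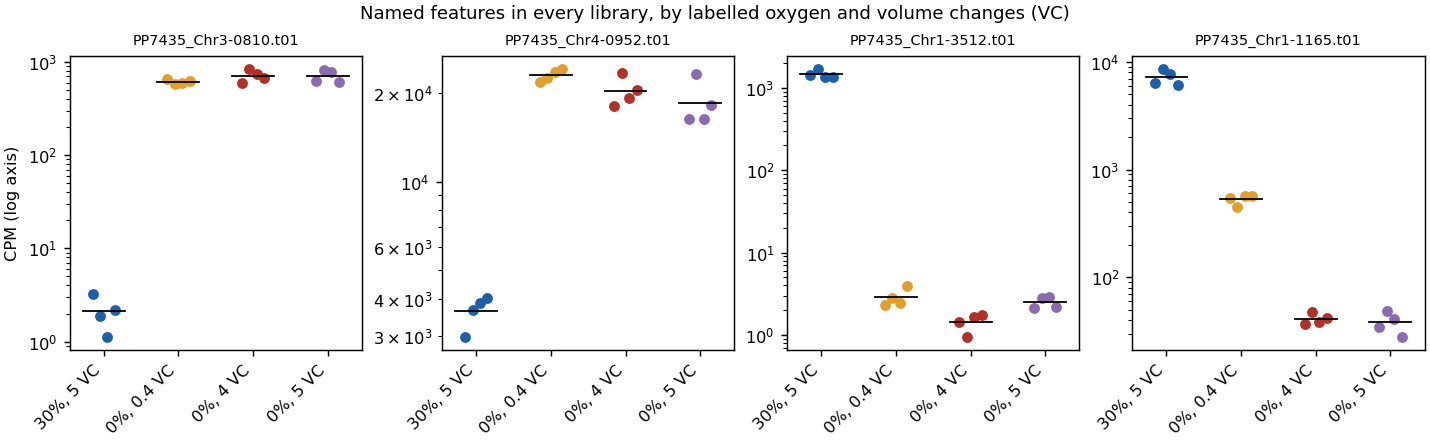
CPM on a log axis of the 4 named features in all 16 libraries, 1 point per library, with a line at the group mean. At 4 volume changes of 0% oxygen the PP7435_Chr3-0810.t01 values lie between 599.7 and 832 CPM against at most 3.24 at 30% oxygen, and PP7435_Chr1-1165.t01 shows an intermediate level at 0.4 volume changes.

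The 6 features that were at least 16-fold higher were all nuclear and coding, as were 5353 of the 5452 tested features. They lay on all 4 numbered chromosomes and measured 195 to 4512 nt. Their means ran from 2.10 to 89.8 CPM at 30% oxygen and from 252 to 1758 CPM at 4 volume changes. The mean of each of the 6 was thus above 1 CPM at 30% oxygen. The lowest of them, PP7435_Chr3-0810.t01, had a mean of only 0.757 TPM there, rank 5510 of all features. The 23 features at least 16-fold lower were likewise nuclear and coding, with 9 on chromosome 1, 3 on chromosome 2, 5 on chromosome 3 and 6 on chromosome 4. Tested nuclear coding features numbered 1656, 1358, 1291 and 1048 on chromosomes 1 to 4. The means of the 23 at 30% oxygen ran from 13.0 to 7168 CPM with a median of 731 CPM, and their median at 4 volume changes was 18.9 CPM. In all 29 features the 4 and 4 values did not overlap, against 42.6% of all tested features. This follows largely from picking them by fold in the same libraries. Together the 23 went from 3.45% of counts at 30% oxygen to 0.0529%, and the 6 from 0.0219% to 0.487%, sums that describe features picked by these same values.

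No feature went from under 1 CPM in every library of one group to over 10 CPM in every library of the other, in either direction. With limits of 2 and 20 CPM there was 1 such feature, PP7435_Chr1-3512.t01. It had 0.956 to 1.75 CPM at 4 volume changes and 1368 to 1674 CPM at 30% oxygen. PP7435_Chr3-0810.t01, with 1.13 to 3.24 CPM at 30% oxygen, met neither pair of limits. Of the 204 features higher by 2-fold or more, 12 had a mean under 1 CPM at 30% oxygen and 81 had at least 100 CPM. Of the 353 lower ones, 197 had at least 100 CPM at 30% oxygen and 71 still did at 4 volume changes. The change thus ran mostly between expressed levels.

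A larger share of the most read features changed by 2-fold or more than of those in the middle of the range. Grouped by the mean CPM of both groups, 25.6% of the 133 features over 1000 CPM were called at 2-fold or more, 19 higher and 15 lower. Of the 2924 features between 10 and 100 CPM, 7.80% were, 59 higher and 169 lower. For all tested features this share was 10.2%. The least read features also lay above it, with 17.6% of 74 under 1 CPM and 15.3% of 268 between 1 and 10 CPM. Their median SEs on the log2 scale were 0.62 and 0.25, against 0.12 for all tested features. CPM is not corrected for length. Grouped by mean TPM instead, 19.8% of 162 features over 1000 TPM and 7.97% of 3890 between 10 and 100 TPM were called at 2-fold or more. Decreases outnumbered increases in the middle classes, whereas over 1000 TPM 21 were higher and 11 lower. Grouped by the level at 30% oxygen alone, which favours decreases among the most read features, 13 of 138 features over 1000 CPM were higher and 28 lower by 2-fold or more.

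By TPM, 12 of the 20 most abundant features at 30% oxygen were also among the 20 most abundant at 4 volume changes. For the top 100 the shared number was 73, and for the top 500 it was 401. Of the 20 most abundant at 4 volume changes, 8 were called higher and 1 lower by 2-fold or more. Of the 20 most abundant at 30% oxygen, 2 were higher and 4 lower. Picking features by their level in one group favours that direction. The 10 largest gains in mean CPM made up 29.6% of the summed gain, and the 10 largest losses 21.1% of the summed loss. In mean TPM these shares were 40.6% and 42.1%. Of the summed TPM loss of 223369, a large part came from PP7435_Chr1-3512.t01 alone, which fell from 46227 to 38.4 TPM. Its TPM is divided by an effective length of 22.2 nt on average.

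As a share of counts in each library, the 204 higher features held 5.05% to 5.51% at 30% oxygen and 15.1% to 16.7% at 4 volume changes. The 353 lower features held 13.0% to 13.5% and 2.57% to 2.87%. Both sets were chosen from these libraries. The other groups were looked at after the data were seen. In the libraries of 0% oxygen that did not enter this contrast, the higher features held 14.4% to 14.9% at 0.4 and 13.9% to 15.7% at 5 volume changes, and the lower features 3.66% to 3.85% and 2.80% to 3.23%. The remaining features took 80.5% to 82.2% of counts at 4 volume changes and 81.1% to 81.7% at 30% oxygen.

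**Figure D4:**
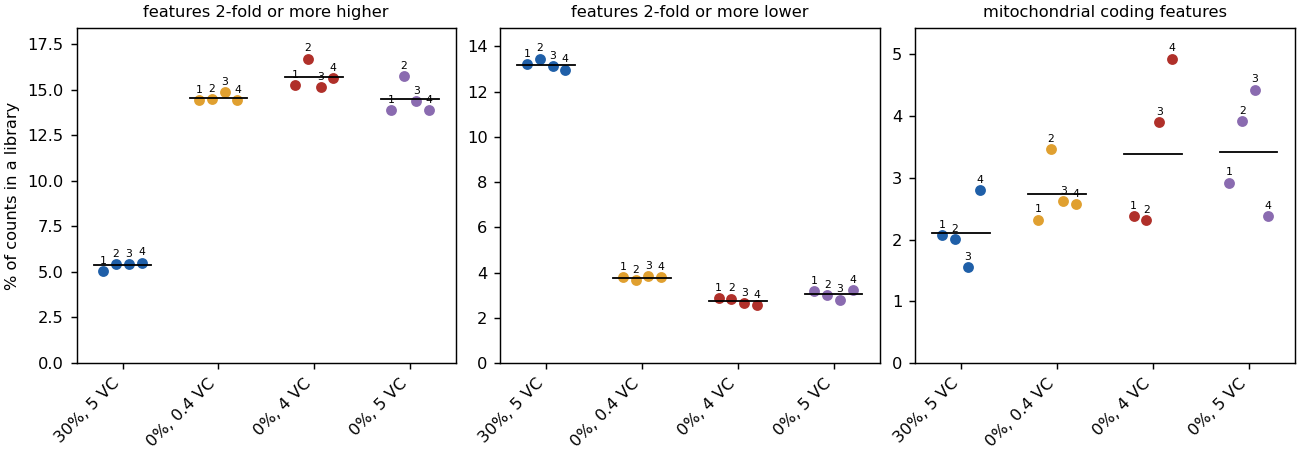
Percentage of a library's counts held by the 204 features higher by 2-fold or more, the 353 lower ones and the mitochondrial coding features, 1 point per library with its replicate number and a line at the group mean. The first 2 panels separate 30% oxygen from every library of 0% oxygen, while in the last the ranges of 1.55% to 2.80% and 2.31% to 4.93% at 4 volume changes overlap.

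The most counted features took a larger share of reads in each library at 4 volume changes. The 10 most counted features took 7.11%, 7.79%, 7.66% and 7.87% of counts in replicates 1 to 4 at 30% oxygen and 10.1%, 13.0%, 10.9% and 11.4% in those at 4 volume changes. The 100 most counted took 27.5% ± 1.31 and 32.1% ± 2.67, and the single most counted 1.34% ± 0.159 and 2.04% ± 0.118 (SD, n = 4). In all 3 measures every library at 4 volume changes lay above every library at 30% oxygen. Two-sided exact permutation tests gave p = 0.0286 for each, the smallest that 4 against 4 libraries allow, and 0.0571 after adjustment over 6 shares tested. On deposited TPM values the shares of the 10 most abundant features were 21.5% ± 2.09 and 21.7% ± 0.713 (exact permutation p = 0.943). No difference was detected there. The 30% oxygen share includes PP7435_Chr1-3512.t01, whose effective length averaged 22.2 nt. Its mean was 46227 TPM at 30% oxygen and 38.4 TPM at 4 volume changes. The shares were not computed without it, so its part in this result was not tested. For the 100 most abundant features the TPM shares were 43.5% ± 0.868 and 45.8% ± 1.94 (exact permutation p = 0.0571, adjusted 0.343).

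Features of the mitochondrial chromosome, which in yeasts carries a few subunits of the respiratory chain and of ATP synthase, were higher in some libraries only. Of 16 coding features 15 were tested, all with positive log2 fold changes from 0.11 to 1.30, and 8 were called higher and 0 lower, against 24.6% called higher among all tested features. Their median log2 fold change was 0.68, against 0.00 for all features. In just 1 of the 15 did the 4 and 4 values not overlap, whereas 42.6% of all tested features did not overlap, 1134 of the 5452 in the higher direction. The summed level was 18445, 19679, 15409.5 and 27312 CPM in replicates 1 to 4 at 30% oxygen and 22624, 26674, 37393 and 47267 CPM in those at 4 volume changes. Replicates 3 and 4 at 4 volume changes thus stood above every control, whereas replicates 1 and 2 lay below replicate 4 at 30% oxygen. Without replicate 4 at 4 volume changes 4 of the 15 were called, without replicate 3 there 5, without replicate 3 at 30% oxygen 4, and without replicate 4 at 30% oxygen 11. The share of counts was 2.11% ± 0.518 and 3.38% ± 1.27 (SD, n = 4; two-sided exact permutation p = 0.143, adjusted 0.214). The difference of 1.27 percentage points was 0.757 without replicate 4 at 4 volume changes, and 2.91 as a share of TPM.

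Of the r features, 24 of 33 on the mitochondrial chromosome and 60 of 153 elsewhere passed the filter on low counts. On the mitochondrial chromosome 6 of the 24 (25.0%) were higher and 0 lower, against 24.6% called higher and 25.4% called lower among all tested features, and their median log2 fold change was 0.87. This count was 2 without replicate 3 at 30% oxygen, 3 without replicate 4 at 4 volume changes, 9 without replicate 2 there and 3 with the 8 libraries fitted alone. Elsewhere 4 of the 60 (6.67%) were higher and 3 (5.00%) lower, below the same shares of all tested features. These 60 were measured less precisely, with a median SE of 0.55 on the log2 scale against 0.12 for all tested features. Their median absolute log2 fold change was 0.77, against 0.31. All 7 called features measured at most 120 nt, as did 52 of the 60. With the filter raised to 50 counts in 4 libraries none of these 7 calls remained. The r features outside the mitochondrial chromosome took 0.0140% to 0.0228% of counts at 4 volume changes and 0.0178% to 0.0280% at 30% oxygen.

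Changed features stood on every nuclear chromosome. Between 49.1% and 52.7% of the coding features of chromosomes 1 to 4 were called, and those changed by 2-fold or more made up 10.1% on chromosome 1, 8.10% on chromosome 2, 11.2% on chromosome 3 and 11.5% on chromosome 4. Those lower by 2-fold or more ranged from 4.49% on chromosome 2 to 8.02% on chromosome 4, and those higher from 3.26% on chromosome 1 to 4.11% on chromosome 3; differences between chromosomes were not tested. Changed features could be neighbours by identifier number. Of 291 lower features whose next number was tested, 55 (18.9%) were followed by another feature lower by 2-fold or more, against 6.47% over all tested features. For the higher features this was 22 of 175 (12.6%), against 3.74%. In 12 stretches, 3 or more consecutive numbers changed in the same direction, 10 of them lower and 2 higher. One of the pair of 4-feature stretches holds PP7435_Chr1-1165.t01, whose neighbours had log2 fold changes of -4.0 to -1.05. Identifier numbers were taken as neighbours without coordinates, so overlap of neighbours in the genome was not examined.

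The share called at 2-fold or more was highest among coding features under 300 nt, which were also measured least precisely. Of 249 features under 300 nt, 19.7% were called at 2-fold or more, 16 higher and 33 lower, with a median SE of 0.22 on the log2 scale. Of 937 features over 2100 nt, 7.04% were, 17 higher and 49 lower, with a median SE of 0.09. Between these classes the share was 8.84% from 300 to 900 nt and 11.2% from 900 to 2100 nt, so it did not fall steadily with length. The share called at any size was 42.2% under 300 nt and 49.3% over 2100 nt. A feature was taken to share reads with another where its estimated count was not whole (tolerance 1e-06). Features with such a count in any of the 8 libraries made up 4.90% of the 204 higher and 2.83% of the 353 lower, against 2.35% of all tested, and none of the 4 named features was among them.

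The libraries at 4 volume changes varied more among themselves than those at 30% oxygen. The median SD of log2 CPM was 0.19 at 4 volume changes and 0.14 at 30% oxygen, and it was larger at 4 volume changes for 66.0% of features. Of 273 features with an SD over 0.5 at 4 volume changes, replicate 2 lay farthest from the group median in 175. Its TMM factor was 0.866, against 1.04 to 1.05 in the others. Leaving it out gave 2754 called features, 187 higher and 381 lower by 2-fold or more. Totals ran from 30205207 to 33473609 estimated counts at 4 volume changes and from 32534110 to 40699763 at 30% oxygen. In a principal component analysis of the 8 libraries, the leading axis (75.3% of variance) separated the groups, and the next (9.41%) set replicate 2 at 4 volume changes (-21.5) apart from the other three of its group (-2.20 to 14.9).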

How the data were processed

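Per the file headers, the deposited tables, 1 per library, give each feature a length, an effective length, a TPM value and an estimated count (unnormalised reads). TPM is the estimated count over effective length, scaled by the authors to the same total per library. The submitters' processing notes name kallisto 0.44.0, DESeq2 1.36.0, R 4.2.0, SAMtools 1.9, Bowtie2 2.3.4.1 and cutadapt 1.18, without roles. For build, annotation and strand setting, the sources used here say nothing. Per the labels' protocols, ribosomal RNA was depleted and directional libraries were made.

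Estimated counts were rounded. In edgeR 4.0.16 (R 4.3.3) filterByExpr removed 112 of 5564 features, and quasi-likelihood fits with TMM factors and group means (no covariates) used all 16 libraries. P-values were Benjamini-Hochberg adjusted over 5452 features, and SE values come from the F statistic. Scripts were tested on simulated data. Shares were compared by exact permutation. Alternatives used other factors, filters, libraries, DESeq2 1.42.0 and limma 3.58.1.

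Named features had at least 50 counts on average, a call and no overlap: in each direction the largest fold and the largest CPM difference. The members and lists were chosen with earlier results of these data known. Lists by function were planned by gene symbol and were not tested. Replicates differed by more than sampling noise.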

Additional observations from a re-analysis of the deposited data

Results flagged for a closer look

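Of 28 sets of 4 values (14 measures in both groups), 5 had 1 value far from the rest, where chance gives about 1 in 20, or 1.4. Replicate 1 at 30% oxygen accounts for 4 of them. Non-mitochondrial r features took 0.0280% of its counts, against 0.0178% to 0.0187% in the others. Its 100 most counted features took 25.5% of counts, against 28.03% to 28.23%. The 204 features higher by 2-fold or more took 5.05% of its counts, against 5.44% to 5.51%. Its TMM factor was 1.12, against 1.01 to 1.03. Without this library 2531 features were called in place of 2727. Leaving out replicate 2, 3 or 4 at 30% oxygen instead gave 2486, 2478 and 2574, so the drop was not particular to replicate 1. The remaining case was the TMM factor of replicate 2 at 4 volume changes, 0.866, against 1.04 to 1.05.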

How the results depend on the processing

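The numbers of features called, called higher, called lower and called in each direction at 2-fold or more stayed within 1.5 times their main values under every alternative run: 2388 to 2804 called in all. Leaving out 1 of the 8 libraries gave 2455 to 2754 called, and the replicate block gave 2697 called, 1327 higher and 1370 lower. Deviations of same-numbered libraries correlated at -0.17 to 0.25, and 2 of 4 libraries of each group correlated best with their own number. With 4 libraries per group these values cannot decide whether a replicate number marks the same chemostat in both groups. The log2 fold changes of the named features kept their direction and call, at 7.15 to 8.68, 2.39 to 2.53, -10.3 to -9.82 and -7.53 to -7.37 in the order of the text. Of the shares, as differences in percentage points, those of TPM were 0.149 for the 10, 2.301 for the 100 (exact permutation p = 0.0571) and 0.390 for the single most abundant feature, and 0.00396 for r features outside the mitochondrial chromosome, against -0.00333 in counts. For the 100 most counted features, leaving out 1 library gave 3.34 to 5.27, and without replicate 1 at 30% oxygen the exact permutation p was 0.0571. Limits of 2 and 20 CPM found 1 feature near silent at 4 volume changes and expressed at 30% oxygen, against 0. Mitochondrial coding features called higher numbered 5 on log2(TPM + 1). The cause of these shifts was not tested. Function lists were not run.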
